A study of Homo sapiens with 9 samples.

Results

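The genes described are 10 secreted mediators of inflammation and their close relatives, measured as mRNA in the nasopharyngeal carcinoma cell line HK1 after E2F1 or E2F3 was silenced. They are the interleukin-1 family genes IL1A, IL1B, IL18 and IL1RN, the interleukin-6 gene IL6, and the chemokine genes CXCL1, CXCL2, CXCL3, CXCL8 and CCL20. They were chosen by name, with earlier results of these data known, as were the gene lists used below. Counts of called genes set beside the share of all genes are therefore descriptions and not tests of a set. The 10 genes were found by Ensembl identifier with GENCODE 29 symbols, and all 10 were present among 58381 identifiers in the files. A total of 5 of them (IL1A, IL1B, IL18, IL6 and CXCL2) reached 1 FPKM (a fragment count scaled for transcript length and for library size) in at least 3 libraries and were tested with 13777 genes in all. The other 5 stayed under that limit and are given as levels.

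HK1 is an established epithelial line from a nasopharyngeal carcinoma. All cells were transfected with siRNA at 100 nM and collected after 48 h, in 3 groups of 3 libraries: siRNA against E2F1, siRNA against E2F3, and a non-targeting control siRNA. E2F1 and E2F3 are transcription factors bound by the retinoblastoma protein and best known for genes of S phase entry. The question addressed is how lowering each factor's mRNA changed the transcriptome of these tumour cells. The labels name neither the siRNA sequences nor the number of siRNAs per gene. Nor is it stated there whether replicate libraries are from separate cultures, so every p-value refers to the spread among the libraries alone, which may be technical.

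Interleukin-1 alpha (IL1A) and beta (IL1B) act on the same receptor, which recruits the adaptor MYD88 and activates NF-kB and AP-1. IL1RN encodes the antagonist of that receptor. IL1B and IL18 are made as precursors that caspase-1 cuts within inflammasomes, whereas IL1A is active as a precursor and is abundant in squamous epithelium. Interleukin-6 signals through its receptor IL6R and the shared subunit gp130 (IL6ST) to STAT3. CXCL1, CXCL2, CXCL3 and CXCL8 attract neutrophils through CXCR1 and CXCR2, and CCL20 attracts CCR6-bearing lymphocytes and dendritic cells. IL6, IL1B and these chemokines are textbook NF-kB targets, and their mRNAs carry AU-rich elements bound by decay factors such as tristetraprolin (ZFP36).

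The promoters of IL6 and IL1B are shown because these genes had the largest mean fall over both siRNAs. Both sequences are from RefSeq (GRCh38.p14), run from 250 bases before to 50 bases after the annotated start, and read 5′ to 3′ on the gene's strand: chr7:22726950-22727249, plus strand, for IL6, and chr2:112836730-112837029, minus strand, for IL1B. Capitals mark a match to the NF-kB consensus.
IL6: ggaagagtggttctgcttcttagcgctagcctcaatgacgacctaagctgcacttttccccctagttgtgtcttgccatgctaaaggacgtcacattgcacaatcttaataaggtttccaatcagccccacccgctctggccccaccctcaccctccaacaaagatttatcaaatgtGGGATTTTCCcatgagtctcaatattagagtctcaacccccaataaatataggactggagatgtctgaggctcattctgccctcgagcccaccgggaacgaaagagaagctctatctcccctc
IL1B: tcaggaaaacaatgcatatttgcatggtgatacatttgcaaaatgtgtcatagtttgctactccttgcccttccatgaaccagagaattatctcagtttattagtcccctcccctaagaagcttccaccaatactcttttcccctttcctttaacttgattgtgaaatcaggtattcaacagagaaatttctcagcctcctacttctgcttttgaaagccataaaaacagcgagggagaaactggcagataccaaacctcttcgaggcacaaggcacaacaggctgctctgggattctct
The IL6 window held a single match, GGGATTTTCC, 73 bases before the start. The IL1B window held no match to the 4 motifs searched on both strands, which were the NF-kB consensus, AP-1 (TGANTCA), E2F (TTTCCCGC or TTTGGCGC) and the TATA box (TATAAA). Sites outside the window were not searched. Of 35116 promoters of this length, 11.3% held the NF-kB consensus, 7.71% AP-1, 2.27% E2F and 11.5% TATAAA.

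CXCL1, CXCL2 and CXCL3 are near copies of each other, and the stretch from 100 to 41 bases before their starts is shown because it is shared almost letter for letter. The windows are chr4:73869293-73869352, plus strand, for CXCL1, chr4:74099236-74099295, minus strand, for CXCL2, and chr4:74038730-74038789, minus strand, for CXCL3 (RefSeq, GRCh38.p14). Capitals mark GGGAATTTCCC, which holds the NF-kB consensus on each strand in overlapping positions.
CXCL1: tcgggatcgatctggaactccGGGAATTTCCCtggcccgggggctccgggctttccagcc
CXCL2: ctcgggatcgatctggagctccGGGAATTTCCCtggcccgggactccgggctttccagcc
CXCL3: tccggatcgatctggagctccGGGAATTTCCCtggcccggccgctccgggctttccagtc
Among the other chemokines, the CCL20 promoter held an NF-kB match 79 bases before its start, and that of CXCL8 an AP-1 match 137 bases before. Only exact matches were searched, so sites that differ by a letter are missed. The CXCL8 window held tggaatttcc, which differs from the NF-kB consensus in its first letter only. The E2F motif matched in none of the promoters found for 9 of the 10 genes. IL18 had no entry.

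In control cells the order of the levels per length was IL18, IL1A, IL6, IL1B, CXCL2, CXCL8, IL1RN, CXCL3, CXCL1 and CCL20. IL18 averaged 105 ± 2.36 FPKM there and IL1A 20.4 ± 1.31 FPKM (SD, n = 3 each). The control ranges of IL6 and IL1B overlapped, as did those of each pair of neighbours from CXCL2 down to CXCL3, and those of CXCL1 and CCL20. After E2F1 siRNA the 4 interleukins kept the order IL18, IL1A, IL6, IL1B, with no overlap between neighbours. After E2F3 siRNA IL6 stood below IL1B, also without overlap. The 10 genes together summed to 109, 95.7 and 104 FPKM after E2F1 siRNA, 137, 124 and 130 FPKM after E2F3 siRNA, and 158, 157 and 162 FPKM in control cells. IL18 alone made up 77.1 to 79.2% of that sum after E2F1 siRNA, 68.9 to 73.2% after E2F3 siRNA and 64.7 to 68.8% in control cells.

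**Figure D1:**
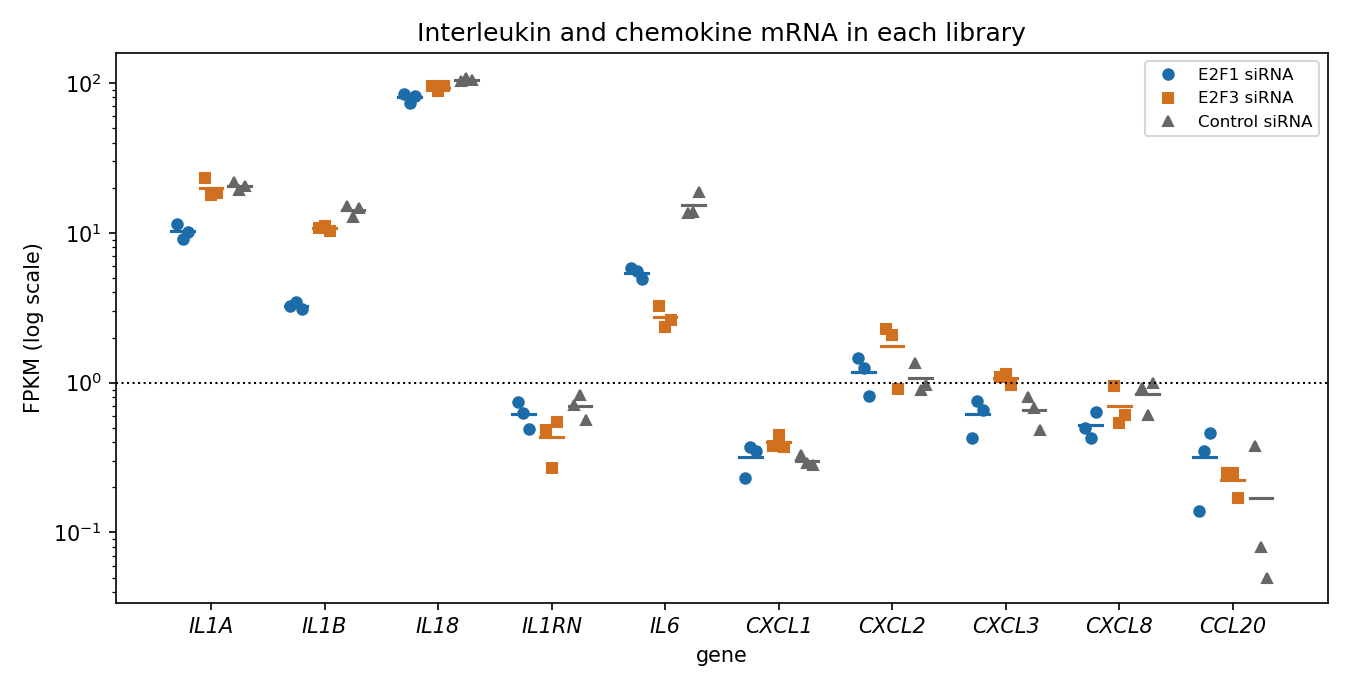
FPKM of the 10 genes in each of 9 libraries on a log axis, by group: E2F1 siRNA (circles), E2F3 siRNA (squares) and control siRNA (triangles), with short lines at group means and a dotted line at 1 FPKM. IL1B, IL6 and IL18 separate all 3 groups, IL1A separates E2F1 siRNA from the others, IL18 lies highest in every library, and IL1RN, CXCL1, CXCL8 and CCL20 stay under 1 FPKM.

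Both siRNAs lowered their own transcript. E2F1 mRNA was at 7.17, 7.95 and 7.33 FPKM after E2F1 siRNA and 19.85, 19.53 and 20.20 FPKM in control cells. E2F3 mRNA was at 12.61, 10.52 and 11.02 FPKM after E2F3 siRNA and 24.74, 27.17 and 24.42 FPKM in control cells. Steps in the values of single-exon genes put the depth at an estimated 24500000 to 34000000 fragments per library, which corresponds to 117 to 691 fragments for IL1B, 82 to 822 for IL6 and 1 to 8 for CCL20. All 12 epithelial and squamous markers were at 1 FPKM or more, with sums of 2070 to 2190 FPKM after E2F1 siRNA, 1980 to 2090 FPKM after E2F3 siRNA and 2890 to 2920 FPKM in control cells. Of 18 leukocyte markers, 13 stayed under 1 FPKM everywhere and none was at 0 in all 9 libraries. Their sums were 23.3 to 24.7 FPKM after E2F1 siRNA, 24.5 to 28.0 FPKM after E2F3 siRNA and 26.3 to 41.1 FPKM in control cells. CD68, CSF1R and LYZ carried most of this, LYZ reaching 7.49 FPKM in control replicate 3 and at most 1.06 FPKM in any other library. PTPRC, which encodes the common leukocyte antigen CD45, was at 0.02 to 0.46 FPKM after E2F1 siRNA, 0.04 to 0.07 FPKM after E2F3 siRNA and 0.03 to 0.38 FPKM in control cells. CSF1R, the receptor of the cytokine CSF1, fell by 0.70 after E2F1 siRNA (limma adjusted p = 0.000121) and by 0.32 after E2F3 siRNA (limma adjusted p = 0.0129). Of 3 leukocyte markers tested, the other 2 were not called against control. Of 12 epithelial and squamous markers 9 fell after each siRNA, and 1 rose after E2F3 siRNA. Among all genes tested 17.3% fell after E2F1 siRNA, and 16.4% fell and 21.1% rose after E2F3 siRNA. The 1 fibroblast marker tested rose after E2F1 siRNA (log2 0.45) and was not called after E2F3 siRNA. Of 10 fibroblast markers 7 stayed under 1 FPKM everywhere, with sums of 18.4 to 21.1 FPKM after E2F1 siRNA, 15.3 to 17.9 FPKM after E2F3 siRNA and 14.6 to 15.9 FPKM in control cells. Of 8 endothelial markers 6 stayed under 1 FPKM, and their sums were at most 2.17, 1.83 and 2.52 FPKM in those groups. The part of any other cell type in the results was not tested, and in bulk RNA fewer cells of a type and less RNA per cell cannot be told apart.

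After E2F1 siRNA all 4 interleukins tested were lower than in control cells, IL1B by most, then IL6 and IL1A, and IL18 by least. Of the 5 genes tested, 4 fell and 0 rose, while among all genes tested 17.3% fell and 20.5% rose (limma, adjusted p under 0.05). As the members were chosen with earlier results known, these counts describe them and are no test of the set. CXCL2 was not called. The median log2 change of all genes tested was 0.0276.

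IL1B (chr2:112829751-112836903, minus strand, GRCh38) was at 3.25, 3.46 and 3.10 FPKM after E2F1 siRNA, against 15.07, 12.74 and 14.62 FPKM in control cells. Every E2F1 siRNA library lay far below every control library. Measured as log2(FPKM + 1), a scale that makes the change of a weakly expressed gene look smaller, it fell by 1.82 (SE 0.08; limma adjusted p = 2.65e-07). IL1A (chr2:112773915-112784590, minus strand), its neighbour, was at 11.50, 9.16 and 10.18 FPKM after E2F1 siRNA, against 21.77, 19.16 and 20.42 FPKM in control cells. The groups did not overlap, and IL1A fell by 0.93 (SE 0.11; limma adjusted p = 0.000116). IL18 (chr11:112143251-112164117, minus strand), whose precursor is stored in epithelial cells, had 84.61, 73.78 and 82.24 FPKM after E2F1 siRNA and 103.37, 107.96 and 104.68 FPKM in control cells. Its fall of 0.39 (SE 0.06; limma adjusted p = 0.000453) was small in size but larger than the spread between libraries.

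IL6 (chr7:22725884-22732002, plus strand) was at 5.82, 5.54 and 4.88 FPKM after E2F1 siRNA, against 13.55, 13.73 and 18.78 FPKM in control cells. All 3 E2F1 siRNA libraries were below all controls, of which replicate 3 stood highest. IL6 fell by 1.34 (SE 0.14; limma adjusted p = 4.65e-05), and by 1.19 without control replicate 3, the library with the high LYZ value. A link between the IL6 and LYZ values of that library was not tested. CXCL2 (chr4:74097035-74099293, minus strand) had 1.45, 1.26 and 0.81 FPKM after E2F1 siRNA and 1.35, 0.90 and 0.96 FPKM in control cells. These ranges overlapped, and its log2 change of 0.07 had a 95% interval of -0.41 to 0.54 (limma adjusted p = 0.834).

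After E2F3 siRNA the pattern was another one: IL6 was strongly lower, IL1B and IL18 were slightly lower, and IL1A was at about its control level. Of the 5 genes tested, 3 fell and 0 rose, against 16.4% lower and 21.1% higher among all genes tested, whose median log2 change was 0.0417. Both siRNA groups are compared with the same 3 control libraries, so the 2 comparisons are not independent.

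IL6 stood at 3.23, 2.34 and 2.63 FPKM after E2F3 siRNA, against 13.55, 13.73 and 18.78 FPKM in control cells. No library of the silenced cells came near the controls. The fall was 2.12 on the log2 scale (SE 0.14; limma adjusted p = 3.17e-06), and 1.98 without control replicate 3. Transcripts on the opposite strand that overlap IL6, AC073072.1 and STEAP1B, were at most at 0.23 FPKM, and whether counting used strand is not given in the sources used here.

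IL1B was at 10.69, 11.17 and 10.23 FPKM after E2F3 siRNA, against 15.07, 12.74 and 14.62 FPKM in control cells. The groups did not overlap, and IL1B fell by 0.37 (SE 0.08; limma adjusted p = 0.00494). IL18 had 94.77, 87.77 and 95.22 FPKM after E2F3 siRNA and 103.37, 107.96 and 104.68 FPKM in control cells. It fell by 0.19 (SE 0.06; limma adjusted p = 0.0273), a call that was lost when any control library or E2F3 siRNA replicate 2 was left out (adjusted p = 0.0508 to 0.0852) and when no filter on low values was used (adjusted p = 0.0651). IL1A was at 23.34, 17.97 and 18.46 FPKM after E2F3 siRNA and 21.77, 19.16 and 20.42 FPKM in control cells. Its ranges overlapped, with a log2 change of -0.04 and a 95% interval of -0.29 to 0.20 (limma adjusted p = 0.78).

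CXCL2 was at 2.28, 2.08 and 0.91 FPKM after E2F3 siRNA and 1.35, 0.90 and 0.96 FPKM in control cells. Replicates 1 and 2 after E2F3 siRNA lay above every control library and replicate 3 lay within the control range. The log2 change of 0.38 did not pass the test (95% interval -0.10 to 0.86; limma adjusted p = 0.189). Without E2F3 siRNA replicate 3 it was 0.63 and passed (limma adjusted p = 0.0221), so 1 library decides this call.

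**Figure D2:**
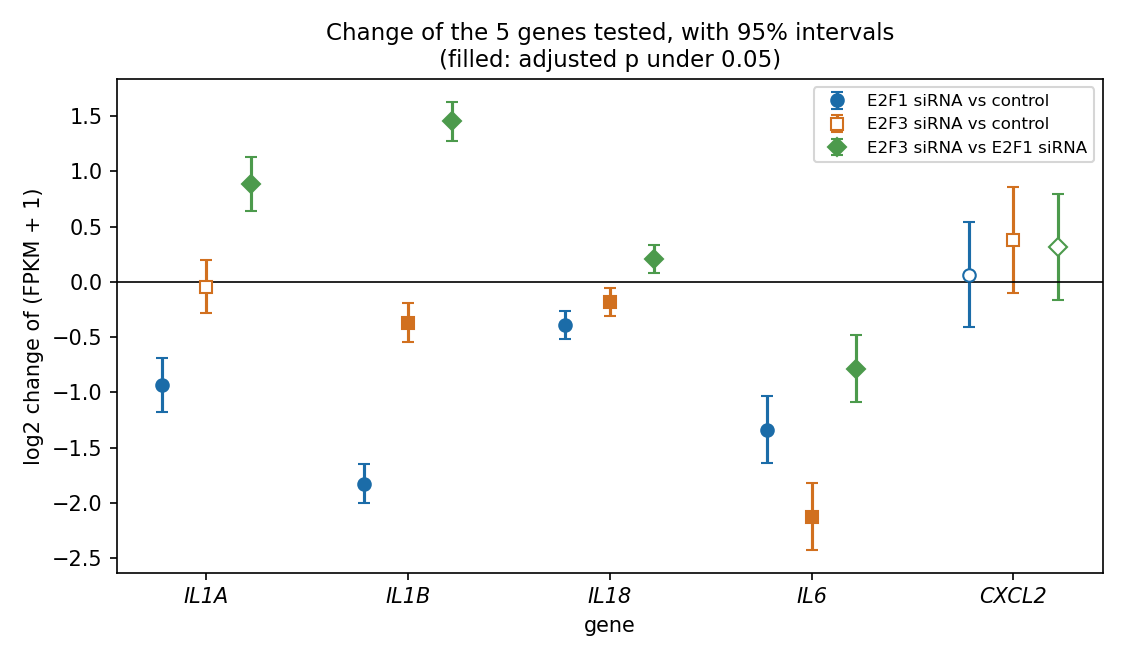
Log2 change of (FPKM + 1) with 95% intervals from limma for the 5 genes tested, in E2F1 siRNA against control (circles), E2F3 siRNA against control (squares) and E2F3 siRNA against E2F1 siRNA (diamonds), filled where the adjusted p is under 0.05. IL1B shows the largest fall after E2F1 siRNA (-1.82) and IL6 after E2F3 siRNA (-2.12), and the direct comparison is above 0 for IL1A, IL1B and IL18 and below 0 for IL6.

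Set directly against each other, E2F3 siRNA cells held more IL1A, IL1B and IL18 mRNA and less IL6 mRNA than E2F1 siRNA cells. Of the 5 genes tested, 3 were higher and 1 was lower, against 23.5% higher and 22.0% lower among all genes tested (median log2 difference 0.0153). IL1B differed by 1.45 (SE 0.08; limma adjusted p = 6.56e-07), with 10.23 to 11.17 FPKM after E2F3 siRNA and 3.10 to 3.46 FPKM after E2F1 siRNA. IL1A differed by 0.89 (SE 0.11; limma adjusted p = 0.000128), with 17.97 to 23.34 FPKM after E2F3 siRNA and 9.16 to 11.50 FPKM after E2F1 siRNA. The difference of IL18 was 0.21 (SE 0.06; limma adjusted p = 0.0138). IL6 ran the other way, at 2.34 to 3.23 FPKM after E2F3 siRNA and 4.88 to 5.82 FPKM after E2F1 siRNA, a difference of -0.78 (SE 0.14; limma adjusted p = 0.00111). For CXCL2 the difference of 0.32 did not pass (95% interval -0.16 to 0.79; limma adjusted p = 0.26), and without E2F3 siRNA replicate 3 it was 0.56 and passed (limma adjusted p = 0.0277).

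The balance among the interleukins in each library is given by their ratios. There were 3.54, 2.65 and 3.28 FPKM of IL1A per FPKM of IL1B after E2F1 siRNA, 2.18, 1.61 and 1.80 after E2F3 siRNA, and 1.44, 1.5 and 1.4 in control cells. The 3 groups did not overlap in this ratio. For IL6 per IL1B the ratio was 1.79, 1.60 and 1.57 after E2F1 siRNA, 0.302, 0.209 and 0.257 after E2F3 siRNA, and 0.899, 1.08 and 1.28 in control cells. Here the 2 silenced groups lay on opposite sides of the controls. These ratios are descriptions of each library and were not tested.

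**Figure D3:**
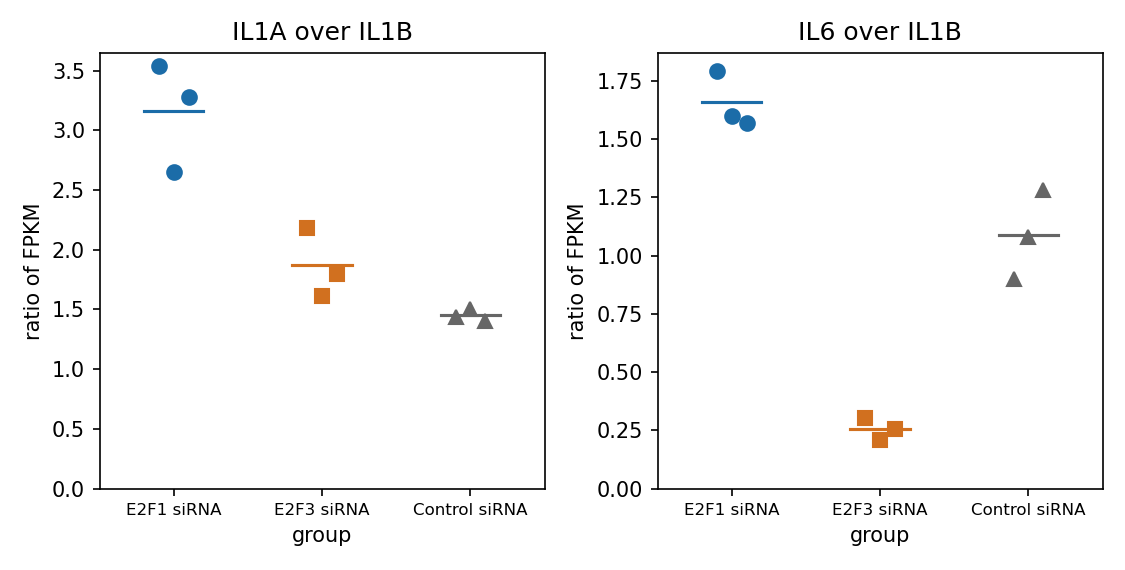
FPKM of IL1A divided by that of IL1B (left) and of IL6 divided by that of IL1B (right) in each library, for E2F1 siRNA, E2F3 siRNA and control siRNA, with lines at the group means of 3.16, 1.87 and 1.45 on the left and 1.66, 0.256 and 1.09 on the right. IL6 per IL1B lies above the controls after E2F1 siRNA and below them after E2F3 siRNA.

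The 5 genes under the limit were close to the floor of the measurement. IL1RN (chr2:113107214-113134016, plus strand) was at 0.74, 0.63 and 0.49 FPKM after E2F1 siRNA, 0.48, 0.27 and 0.55 FPKM after E2F3 siRNA, and 0.71, 0.83 and 0.56 FPKM in control cells. CXCL8 (chr4:73740506-73743716, plus strand), the neutrophil attractant also called interleukin-8, was at 0.50, 0.43 and 0.64 FPKM after E2F1 siRNA, 0.95, 0.54 and 0.61 FPKM after E2F3 siRNA, and 0.92, 0.61 and 0.99 FPKM in control cells. Both silenced groups of CXCL8 reached into the control range. Those of IL1RN did so after E2F1 siRNA but lay just under it after E2F3 siRNA. CXCL3 (chr4:74036589-74038807, minus strand) had 0.43, 0.76 and 0.66 FPKM after E2F1 siRNA, 1.09, 1.15 and 0.97 FPKM after E2F3 siRNA, and 0.80, 0.68 and 0.48 FPKM in control cells. Its E2F3 siRNA libraries lay above all 6 others, and at 2 libraries over 1 FPKM it just missed the limit that CXCL2 passed with 5.

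CXCL1 (chr4:73869393-73871242, plus strand) had 0.23, 0.37 and 0.35 FPKM after E2F1 siRNA, 0.38, 0.45 and 0.37 FPKM after E2F3 siRNA, and 0.33, 0.29 and 0.28 FPKM in control cells. CCL20 (chr2:227805739-227817564, plus strand) was at 0.14, 0.35 and 0.46 FPKM after E2F1 siRNA, 0.25, 0.25 and 0.17 FPKM after E2F3 siRNA, and 0.38, 0.08 and 0.05 FPKM in control cells. At an estimated 5 to 11 fragments for CXCL1 and 1 to 8 for CCL20, both genes rest on few fragments per library. The E2F3 siRNA libraries of CXCL1 lay above all control libraries, while those of CCL20 lay within the control range. In a fit over 30309 genes without the filter, none of the 5 passed in any comparison, and CXCL3 came nearest, with an adjusted p of 0.105 against control and 0.0656 against E2F1 siRNA after E2F3 siRNA (limma). The coding sequences of CXCL1, CXCL2 and CXCL3 are 90.7 to 94.4% identical to each other and 52.4 to 54.0% identical to that of CXCL8. Of all 50-base words in their transcripts, 5.73% for CXCL1, 9.24% for CXCL2 and 5.26% for CXCL3 also occur in another gene, so a part of their reads could have been split between them. IL1A, IL1B, IL6, IL1RN, CXCL8 and CCL20 share none.

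The members sit in 2 gene clusters apart from IL6, IL18 and CCL20. Between IL1B and IL1RN on chromosome 2, in a cluster of 9 protein-coding genes over 360 kb, the 6 other interleukin-1 family genes (IL37, IL36G, IL36A, IL36B, IL36RN and IL1F10) were at most at 0.61 FPKM, and IL36RN was listed at 0 in every library. IL1A and IL1B were thus the expressed end of that cluster, with IL1RN at the other end under 1 FPKM. The CXC cluster on chromosome 4 holds 9 genes over 359 kb, of which CXCL6, PF4V1 and PPBP were listed at 0 in every library and CXCL5 was at most at 0.08 FPKM.

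Among receptors and adaptors of interleukin-1 and interleukin-18, 13 of 20 listed genes were tested. After E2F1 siRNA 2 rose and 2 fell, after E2F3 siRNA 2 rose and 4 fell, and directly 2 were higher and 3 lower. Over all genes tested these shares were 20.5% higher and 17.3% lower after E2F1 siRNA, 21.1% and 16.4% after E2F3 siRNA, and 23.5% and 22.0% directly. The median log2 change of the list was -0.07 in each comparison with control and -0.08 directly. IL1RAP, the co-receptor shared by interleukin-1 and interleukin-33, was at 19.76, 19.05 and 16.23 FPKM after E2F1 siRNA, 16.75, 15.30 and 19.97 FPKM after E2F3 siRNA, and 40.06, 37.25 and 43.06 FPKM in control cells. Both silenced groups lay below all controls and overlapped each other. It fell by 1.09 after E2F1 siRNA (limma adjusted p = 3.17e-05) and by 1.17 after E2F3 siRNA (limma adjusted p = 2.39e-05). IL1R1, the ligand-binding receptor, named after its values were seen, was at 0.02 to 0.06 FPKM after E2F1 siRNA, 0.11 to 0.21 FPKM after E2F3 siRNA and 0.07 to 0.24 FPKM in control cells.

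MYD88, the adaptor of these receptors, was at 17.0 ± 0.987 FPKM after E2F1 siRNA, 21.3 ± 0.934 FPKM after E2F3 siRNA and 22.5 ± 0.765 FPKM in control cells (SD, n = 3 each). It fell by 0.38 after E2F1 siRNA (limma adjusted p = 0.000773) and was not called after E2F3 siRNA (log2 -0.07). IRAK1, a kinase downstream of MYD88, rose by 0.50 after E2F1 siRNA and missed the threshold after E2F3 siRNA (log2 0.18; limma adjusted p = 0.0507). TAB1, TAB2 and TAB3 bind the kinase TAK1. TAB1 rose by 0.37 after E2F1 siRNA and by 0.38 after E2F3 siRNA, and TAB2 fell by 0.30 after E2F3 siRNA (limma adjusted p = 0.000833) with a log2 change of -0.00 after E2F1 siRNA. TAB3, named after its values were seen, was not called (log2 -0.07 and 0.01). MAP3K7, the gene of TAK1, also named after its values were seen, fell by 0.30 after E2F3 siRNA (limma adjusted p = 0.0077). It was not called after E2F1 siRNA (log2 0.04).

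Of 15 inflammasome and processing genes, 11 were tested. After E2F1 siRNA 5 fell and 0 rose, with a median log2 change of -0.33, and after E2F3 siRNA 2 fell and 0 rose, with a median of -0.08. Directly, 4 were higher and 1 was lower after E2F3 siRNA (median 0.14). Among all genes tested 17.3% fell after E2F1 siRNA and 16.4% after E2F3 siRNA, so the 2 of 11 after E2F3 siRNA were near that share, and 23.5% were higher and 22.0% lower directly. CASP1, the protease that matures IL1B and IL18, was at 29.9 ± 0.147 FPKM after E2F1 siRNA, 39.3 ± 1.77 FPKM after E2F3 siRNA and 41.6 ± 3.06 FPKM in control cells (SD, n = 3 each). It fell by 0.46 after E2F1 siRNA (limma adjusted p = 0.000231) and was not called after E2F3 siRNA (log2 -0.08). NEK7, a kinase needed for the NLRP3 inflammasome, fell by 0.64 after E2F1 siRNA (limma adjusted p = 6.66e-05). NLRP3 itself, named after its values were seen, was at 0 FPKM in every E2F1 siRNA and control library. After E2F3 siRNA NLRP3 was at most at 0.11 FPKM. Other sensors of the list, also named after their values were seen, were expressed. After E2F1 siRNA AIM2 fell by 0.36 (limma adjusted p = 0.0441) and NLRP1 by 0.63 (limma adjusted p = 0.0258), both overlapping control. Their control levels were 8.8 ± 0.801 and 5.62 ± 0.982 FPKM. Neither was called after E2F3 siRNA (log2 -0.28 and -0.08), and CARD8 was not called in any comparison. How these calls held without single libraries was not examined. CARD16, a decoy of caspase-1, fell by 0.44 after E2F1 siRNA, a call lost without control replicate 1 or E2F1 siRNA replicate 1 (adjusted p = 0.0541 and 0.0534). GSDMD, which forms the membrane pore for interleukin release, fell by 0.69 after E2F3 siRNA (limma adjusted p = 0.000834), at 1.76 ± 0.0814 FPKM against 3.45 ± 0.116 FPKM in control cells. CASP4, which senses cytosolic lipopolysaccharide, fell by 0.24 after E2F3 siRNA (limma adjusted p = 0.0321), which did not hold when a control library or E2F3 siRNA replicate 2 or 3 was left out (adjusted p = 0.0646 to 0.097). The E2F1 siRNA count dropped to 2 without control replicate 1, to 3 without E2F1 siRNA replicate 3 and to 2 with no filter, and the E2F3 siRNA count dropped to 1 without any 1 of the control libraries or E2F3 siRNA replicate 2.

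**Figure D4:**
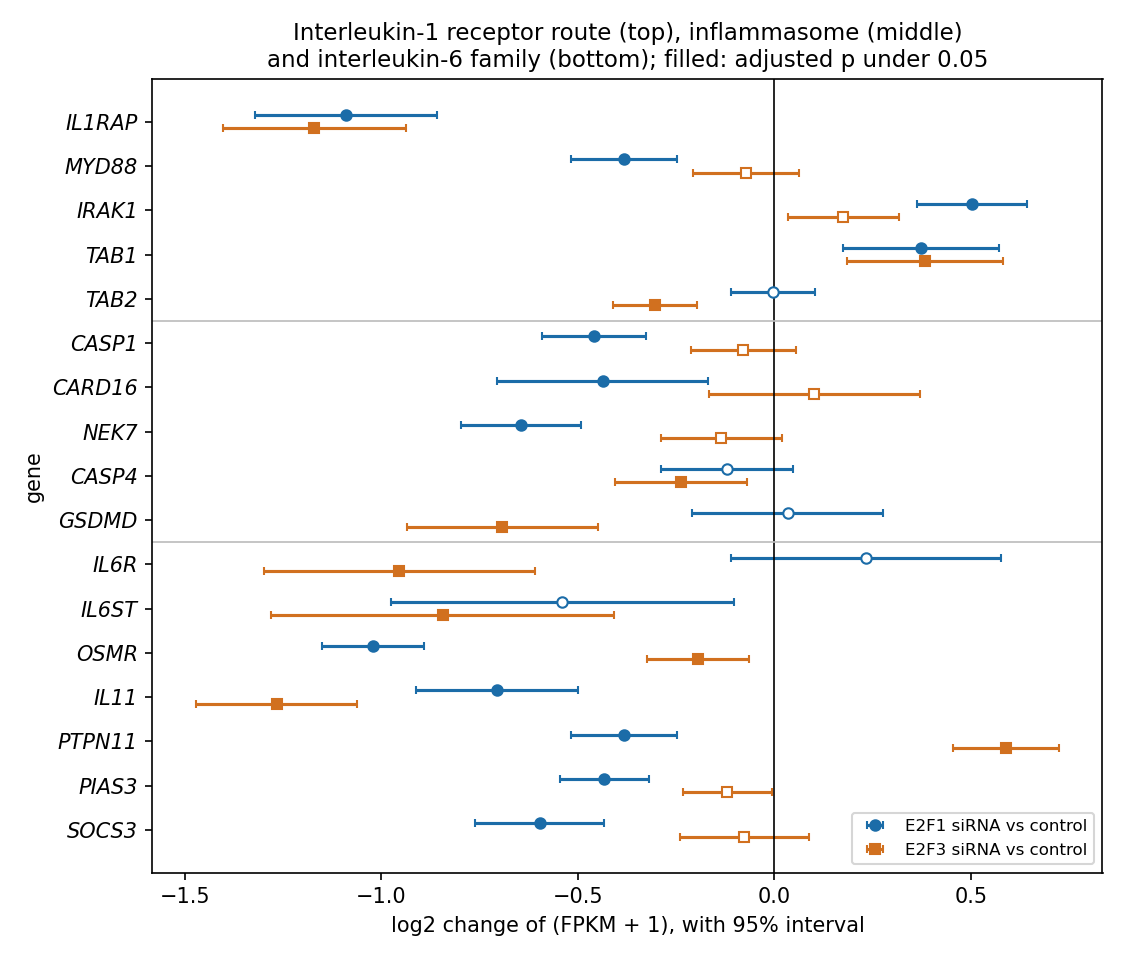
Log2 change of (FPKM + 1) with 95% intervals for genes of the interleukin-1 receptor route (top), the inflammasome (middle) and the interleukin-6 family (bottom), in E2F1 siRNA against control (circles) and E2F3 siRNA against control (squares), filled where the adjusted p is under 0.05. IL1RAP lies near -1.1 in both, OSMR is the lowest of the interleukin-6 genes shown after E2F1 siRNA (-1.02), and PTPN11 is on opposite sides of 0.

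For interleukin-6 relatives, receptors and signalling genes, 15 of 21 were tested. After E2F1 siRNA 1 rose and 5 fell, after E2F3 siRNA 2 rose and 4 fell, and directly 5 were higher and 3 lower (medians -0.14, -0.10 and 0.05). Among all genes tested, 20.5% rose and 17.3% fell after E2F1 siRNA, 21.1% rose and 16.4% fell after E2F3 siRNA, and 23.5% were higher and 22.0% lower directly. The ligand IL11 moved in the direction of IL6. It was at 2.78, 2.69 and 2.48 FPKM after E2F1 siRNA, 1.27, 1.58 and 1.58 FPKM after E2F3 siRNA, and 4.99, 4.85 and 5.01 FPKM in control cells. The 3 groups did not overlap, and IL11 fell by 0.71 after E2F1 siRNA (limma adjusted p = 0.00024) and by 1.27 after E2F3 siRNA (limma adjusted p = 6.56e-06).

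IL6R and OSMR differed between the siRNAs in opposite directions. IL6R was at 18.05, 12.88 and 16.60 FPKM after E2F1 siRNA, 7.72, 6.34 and 5.14 FPKM after E2F3 siRNA, and 12.62, 15.29 and 11.89 FPKM in control cells. It fell by 0.95 after E2F3 siRNA (limma adjusted p = 0.000989), lay 1.19 lower there than after E2F1 siRNA on the log2 scale, and overlapped control after E2F1 siRNA (log2 0.23; limma adjusted p = 0.264). OSMR, the oncostatin M receptor, had 11.41, 11.10 and 11.53 FPKM after E2F1 siRNA, 22.55, 20.07 and 20.20 FPKM after E2F3 siRNA, and 24.15, 23.47 and 24.59 FPKM in control cells. It lay 0.83 higher after E2F3 siRNA than after E2F1 siRNA (limma adjusted p = 3.24e-06). It fell by 1.02 after E2F1 siRNA (limma adjusted p = 1.36e-06) and by 0.19 after E2F3 siRNA (limma adjusted p = 0.0257), the second call being lost without any 1 of 4 libraries: control replicate 1 or 3, or E2F3 siRNA replicate 2 or 3 (adjusted p = 0.0693 to 0.0833). IL6ST, named after its values were seen, missed the threshold after E2F1 siRNA (log2 -0.54; limma adjusted p = 0.053). It fell by 0.84 after E2F3 siRNA (limma adjusted p = 0.00735) and by 0.66 without control replicate 3, where it was highest at 26.08 FPKM. Between the siRNAs IL6ST overlapped and its difference did not pass (log2 -0.31; limma adjusted p = 0.233).

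Downstream of these receptors, PTPN11, the phosphatase SHP2, was at 47.10, 44.38 and 44.30 FPKM after E2F1 siRNA, 97.24, 82.54 and 90.21 FPKM after E2F3 siRNA, and 58.70, 61.38 and 57.84 FPKM in control cells. It fell by 0.38 after E2F1 siRNA (limma adjusted p = 0.00078) and rose by 0.59 after E2F3 siRNA (limma adjusted p = 5.56e-05). SOCS3, the feedback inhibitor induced by STAT3, fell by 0.60 after E2F1 siRNA (limma adjusted p = 0.000166) and had a log2 change of -0.08 after E2F3 siRNA. PIAS3, an inhibitor of STAT3, fell by 0.43 after E2F1 siRNA. STAT3 itself, also named after its values were seen, rose by 0.35 after E2F1 siRNA (limma adjusted p = 0.000322), with 37.9 ± 0.095 FPKM there and 29.6 ± 1.16 FPKM in control cells.

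HK1 expressed few other chemokines, with 5 of 31 listed genes tested. After E2F1 siRNA 2 fell and 0 rose, after E2F3 siRNA 1 fell and 0 rose, and directly 1 was higher (medians -0.36, 0.04 and -0.06). With 5 genes tested, these counts are set beside 17.3% of all genes lower after E2F1 siRNA, 16.4% lower after E2F3 siRNA and 23.5% higher directly. CXCL16, a chemokine made in membrane-bound form, was at 19.6 ± 3.05 FPKM after E2F1 siRNA, 18.6 ± 1.11 FPKM after E2F3 siRNA and 27.8 ± 3.31 FPKM in control cells (SD, n = 3 each). It fell by 0.49 (limma adjusted p = 0.0068) and 0.55 (limma adjusted p = 0.00389). CCL28, a mucosal epithelial chemokine, fell by 0.36 after E2F1 siRNA (limma adjusted p = 0.0397), a call lost without control replicate 1 or 2, E2F3 siRNA replicate 1 or any E2F1 siRNA library (adjusted p = 0.0506 to 0.132). The count of 2 after E2F1 siRNA was 1 without control replicate 2 or any E2F1 siRNA library, and the direct count of 1 was 0 without E2F1 siRNA replicate 2 or E2F3 siRNA replicate 3 and 2 without control replicate 3 or E2F3 siRNA replicate 2. Of 21 chemokine receptors none reached the limit, and CXCR4, the most abundant, was at 0.67 ± 0.14 FPKM after E2F1 siRNA, 0.61 ± 0.121 FPKM after E2F3 siRNA and 0.607 ± 0.212 FPKM in control cells. CXCR1, CXCR2 and CCR6, the receptors for the chemokines described here, were at most at 0.13, 0.25 and 0.02 FPKM, values looked up after the rule for named genes was applied.

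The NF-kB subunits, kinases and feedback inhibitors were all measured, with 18 of 18 tested. After E2F1 siRNA 2 rose and 2 fell, after E2F3 siRNA 2 rose and 4 fell, and directly 1 was higher and 5 lower (medians 0.09, -0.10 and -0.08). The shares of all genes tested were 20.5% higher and 17.3% lower, 21.1% higher and 16.4% lower, and 23.5% higher and 22.0% lower in these comparisons, so the 2 of 18 counts lay under them. RELA, the main activating subunit, was at 87.3 ± 4.92 FPKM after E2F1 siRNA, 69.5 ± 5.78 FPKM after E2F3 siRNA and 80.9 ± 4.41 FPKM in control cells (SD, n = 3 each), and fell by 0.22 after E2F3 siRNA (limma adjusted p = 0.033). NFKB2 fell by 0.34 after E2F1 siRNA and by 0.43 after E2F3 siRNA. The inhibitor NFKBIB rose by 0.64 after E2F1 siRNA (limma adjusted p = 0.000439) and by 0.29 after E2F3 siRNA, and TNFAIP3, the feedback inhibitor A20, fell by 0.53 after E2F1 siRNA. TNIP1 and NFKBIE, also negative regulators, fell by 0.33 and 0.47 after E2F3 siRNA. The count after E2F3 siRNA was 2 without E2F3 siRNA replicate 1 and 2 with no filter. The call of RELA was lost without control replicate 1 or 3 or E2F3 siRNA replicate 1 or 3 (adjusted p = 0.0545 to 0.112), that of NFKBIB without replicate 1 or 2 of either group (0.0595 to 0.0988), and that of NFKBIE without control replicate 3 or E2F3 siRNA replicate 1 (0.06 and 0.0606).

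Of 18 AP-1 and C/EBP factors 16 were tested. After E2F1 siRNA 1 rose and 3 fell, after E2F3 siRNA 3 rose and 3 fell, and directly 4 were higher and 3 lower (medians 0.06, -0.02 and -0.03). These counts stood near the shares of all genes tested, which were 20.5% higher and 17.3% lower, 21.1% and 16.4%, and 23.5% and 22.0%, apart from the single rise after E2F1 siRNA, which lay under its share. CEBPB, known as nuclear factor for IL6 expression, was at 41.9 ± 2.46 FPKM after E2F1 siRNA, 35.6 ± 3.95 FPKM after E2F3 siRNA and 53.1 ± 8.14 FPKM in control cells (SD, n = 3 each). It fell by 0.56 after E2F3 siRNA (limma adjusted p = 0.00358) and by 0.33 after E2F1 siRNA, where the call was lost without control replicate 1 or 3, any E2F1 siRNA library or E2F3 siRNA replicate 2 (adjusted p = 0.0559 to 0.149). CEBPA fell by 0.69 after E2F1 siRNA (limma adjusted p = 0.00014), and by 0.24 after E2F3 siRNA (limma adjusted p = 0.0419), which did not hold when a library was left out, other than E2F3 siRNA replicate 2 (adjusted p = 0.0525 to 0.12). JUNB fell by 0.46 and JUN rose by 0.45 after E2F3 siRNA, ATF3 rose by 0.42 after E2F1 siRNA, and MAFF fell by 0.33 after E2F1 siRNA (limma adjusted p = 0.0418), a call kept only without E2F1 siRNA replicate 1 or E2F3 siRNA replicate 2 when 1 library was left out (adjusted p = 0.0502 to 0.139 otherwise). The count of 4 after E2F1 siRNA was 2 without control replicate 3 or E2F1 siRNA replicate 3. DDIT3 was 0.36 lower after E2F3 siRNA than after E2F1 siRNA on the log2 scale and was not called against control in either.

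Regulators of AU-rich mRNA decay were measured for 15 of 16 listed genes. After E2F1 siRNA 2 rose and 3 fell, after E2F3 siRNA 2 rose and 4 fell, and directly 2 were higher and 5 lower (medians -0.02, -0.05 and -0.10), beside 20.5% higher and 17.3% lower, 21.1% and 16.4%, and 23.5% and 22.0% of all genes tested. ZFP36, which binds AU-rich elements and promotes decay, was at 13.6 ± 1.34 FPKM after E2F1 siRNA, 13.7 ± 0.189 FPKM after E2F3 siRNA and 20.4 ± 2.24 FPKM in control cells (SD, n = 3 each). It fell by 0.55 (limma adjusted p = 0.000967) and 0.54 (limma adjusted p = 0.00117). Its relatives ZFP36L2 and ZFP36L1 moved apart after E2F3 siRNA, the one falling by 0.64 and the other rising by 0.42. ZFP36L2 also fell by 0.18 after E2F1 siRNA (limma adjusted p = 0.0358), a call lost without control replicate 1 or 3 or any E2F1 siRNA library (adjusted p = 0.05 to 0.115). KHSRP, another decay factor, was at 304 ± 6.49 FPKM after E2F1 siRNA, 218 ± 4.21 FPKM after E2F3 siRNA and 216 ± 8.91 FPKM in control cells, a rise of 0.49 after E2F1 siRNA (limma adjusted p = 9.3e-06). HNRNPD, which encodes the AU-rich element binding protein AUF1, rose by 0.36 after E2F1 siRNA. MAPKAPK2, the kinase that stabilises cytokine mRNA by phosphorylating tristetraprolin, was at 14.4 ± 0.978 FPKM after E2F1 siRNA, 23.3 ± 1.26 FPKM after E2F3 siRNA and 22.5 ± 0.38 FPKM in control cells, a fall of 0.61 after E2F1 siRNA (limma adjusted p = 4.82e-05).

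A list of other NF-kB induced genes, named for secreted proteins and adhesion molecules but also holding the mitochondrial enzyme gene SOD2, had 14 of 28 genes tested. After E2F1 siRNA 1 rose and 6 fell with a median of -0.41, after E2F3 siRNA 2 rose and 2 fell with a median of -0.09, and directly 5 were higher and 0 lower with a median of 0.24. Of all genes tested 20.5% rose and 17.3% fell after E2F1 siRNA, 21.1% and 16.4% after E2F3 siRNA, and 23.5% were higher and 22.0% lower directly, so both counts after E2F3 siRNA lay under their shares. ICAM1, the leukocyte adhesion receptor, fell after E2F1 and E2F3 siRNA, by 0.60 (limma adjusted p = 5.99e-05) and 0.57 (limma adjusted p = 9.7e-05), at 22.9 ± 2.02 FPKM after E2F1 siRNA, 23.4 ± 0.33 FPKM after E2F3 siRNA and 35.2 ± 1.18 FPKM in control cells (SD, n = 3 each). The acute phase gene SAA1 fell by 0.54 after E2F1 siRNA and by 0.65 after E2F3 siRNA, from a control level of 2.8 ± 0.564 FPKM. The E2F1 siRNA call of SAA1 was lost without control replicate 2 or 3 or E2F1 siRNA replicate 2 (adjusted p = 0.0585 to 0.0774). IL32, CSF1 and IL15 fell by 0.34, 0.48 and 0.58 after E2F1 siRNA, and had log2 changes of -0.10, -0.11 and 0.10 that did not pass after E2F3 siRNA. SOD2, the mitochondrial superoxide dismutase, ran the other way, rising by 0.50 after E2F1 siRNA (limma adjusted p = 7.36e-05) and by 0.38 after E2F3 siRNA (limma adjusted p = 0.000485).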

How the data were processed

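RNA of 9 HK1 libraries was extracted with a mirVana kit and sequenced after standard Illumina library preparation, per the labels' protocols. Per the submitters' processing notes the tools were HISAT2, TopHat, Trimmomatic, DESeq and HTSeq and the build was GRCh38, without versions or roles. The deposited files give FPKM per gene, per the file headers, and no counts. The test used log2(FPKM + 1) of the 13777 genes that reached 1 FPKM in 3 or more of 9 libraries (726 assembled loci without an Ensembl identifier were left out). A single limma 3.58.1 model (R 4.3.3; trend, not robust) with a mean per group gave the 3 contrasts, each two-sided and called at an adjusted p under 0.05 (Benjamini-Hochberg, across the whole table of tested genes). The fit was tested on simulated data. Depth was estimated from the whole-read steps of single-exon genes (95.0 to 95.8% of values within 0.25 of a step), and fragment numbers per gene rest on that estimate. No pair of libraries shared more than 0.77% identical values. Sequences were searched with Python 3.11.15; proteins are not used here.

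The members and gene lists were chosen with earlier results of these data known. Named genes are all members, E2F1 and E2F3, and of each list the most abundant gene and up to 3 called genes with the smallest adjusted p per comparison. IL1R1, TAB3, MAP3K7, NLRP3, AIM2, NLRP1, CARD8, IL6ST, STAT3, CSF1R, CXCR1, CXCR2 and CCR6 were added after their values were seen. The cell type markers CD68, LYZ and PTPRC were also named outside that rule. Alternatives were another added constant (0.1), no filter or a filter of 5 FPKM, RLE or upper-quartile scaling, only the libraries compared, a replicate block, robust fitting and leaving out each library.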

Additional observations from a re-analysis of the deposited data

How the results depend on the processing

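The falls of IL1B and IL6 in both comparisons with control, the falls of IL1A and IL18 after E2F1 siRNA, and the direct differences of these 4 genes kept direction and call under every alternative run. Leaving out each library gave -1.89 to -1.78 for IL1B and -1.42 to -1.19 for IL6 after E2F1 siRNA, and -0.44 to -0.33 and -2.22 to -1.98 after E2F3 siRNA. IL18 after E2F3 siRNA lost its call with no filter (-0.19) and without single libraries (range -0.21 to -0.15). The uncalled change of IL1A after E2F3 siRNA ranged from -0.16 to 0.02 and changed sign without control replicate 1 or E2F3 siRNA replicate 2 or 3. CXCL2 ranged from -0.03 to 0.19 after E2F1 siRNA, changing sign without E2F1 siRNA replicate 1, from 0.24 to 0.63 after E2F3 siRNA, and from 0.17 to 0.56 directly, passing in the last 2 without E2F3 siRNA replicate 3. Members called higher after E2F3 siRNA thus ranged from 0 to 1. A filter of 5 FPKM left no value for CXCL2. For other named genes, 1670 alternative values were taken, all for changes called in the main fit, MAP3K7, AIM2 and NLRP1 not among them. Of these, 94 lost their call and none changed sign. Called changes had little room to change sign, and uncalled changes of these genes were not covered. Of 510 list counts, 32 moved by over 1.5 times. Low fragment numbers limit IL1RN, CXCL1, CXCL3, CXCL8 and CCL20.

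The labels do not say whether replicate numbers pair the samples. Same-numbered deviations over all genes tested correlated between -0.106 and 0.112, which cannot exclude a pairing. With a replicate block, E2F1 siRNA had 2678 genes higher and 2258 lower, E2F3 siRNA 2730 and 2141, and the direct comparison 3082 and 2900, with member counts unchanged at 4 lower, 3 lower, and 3 higher with 1 lower. The cause of these shifts was not tested.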
